A study of Mus musculus with 16 samples.

Results

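Myc and 39 genes of ribosome biogenesis were followed across white and brown mouse preadipocytes cultured with or without Fgf8b, a secreted fibroblast growth factor. The 40 members were taken by gene symbol from a named list. All 40 were found among the 29060 gene symbols of the deposited table, and all 40 passed the filter on low values, among 15222 genes that did. The cells were primary preadipocytes grown from the stromal-vascular fraction of inguinal white fat or interscapular brown fat of C57BL/6N mice that carry a UCP1 reporter. Every group came from this reporter strain. Control and Fgf8b libraries of each depot made up the 4 groups, with 4 libraries each. The design text speaks of 3 independent cultures and the labels do not tie libraries to cultures, so p-values measure the spread between libraries, which may be partly technical. The sources used here give neither the dose nor the duration of Fgf8b, nor the age of the mice.

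Myc is a transcription factor that binds DNA with its partner Max and is known to raise transcription of genes for growth, with ribosome production among its best studied targets. Ribosomes are assembled in the nucleolus. RNA polymerase I transcribes the ribosomal RNA precursor, small nucleolar ribonucleoproteins modify it, and assembly factors cleave and fold it together with ribosomal proteins into a small and a large subunit. In fat tissue, preadipocytes are the precursors that divide before they differentiate, and division requires new ribosomes.

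The libraries held 13.7 to 20.1 M reads, as read back from the deposited values. RPKM denotes reads per kilobase of transcript, scaled to the size of the library. Fibroblast and preadipocyte markers (all 13 listed) were detected, with a summed level of 5822 to 6080 RPKM in white control, 2940 to 3110 in white Fgf8b, 3937 to 4495 in brown control and 1583 to 1661 in brown Fgf8b libraries. The sums hide opposite changes: with Fgf8b 5 of the 13 rose and 8 fell in white cells, and 2 rose and 10 fell in brown cells. Among all genes tested, Fgf8b raised 36.3% and lowered 29.5% in white, and raised 36.7% and lowered 34.7% in brown cells. Dcn, a proteoglycan of connective tissue, rose from 168 to 355 RPKM in white cells and was not called in brown cells. Lum, its relative, rose from 14.4 to 74.7 RPKM in white and fell from 7.14 to 4.70 in brown cells. The labels call the source adipocytes, but mature adipocyte markers were low: Cidec and Retn were at 0 in all libraries of the control groups, Retn was at 0 in every group, and Fabp4 made up most of a sum of 5.13 to 19.5 RPKM over 5 genes. Of 4 brown-lineage markers, 3 were called higher and Ebf3 lower (log2 -0.16, adjusted p = 0.02593) in brown than in white control cells, and the 3 white-lineage markers tested of 4 listed were lower. Zic1, a brown-lineage marker, averaged 12.8 ± 0.47 RPKM in brown and 0.18 ± 0.05 in white control libraries (SD, n = 4), and Hoxc10, a white-lineage marker, 2.67 ± 0.38 and 45.7 ± 1.16. Markers of other cell types were low. Over the 4 groups, the summed level ran from 1.47 to 12.02 RPKM for 7 endothelial markers, 5.30 to 10.2 for the 7 of 8 leukocyte markers found in the table, 2.07 to 10.6 for 7 skeletal muscle markers, 1.77 to 13.7 for 5 Schwann cell markers and 0.07 to 1.42 for 5 epithelial markers. The endothelial, muscle and Schwann sums were lower in every Fgf8b library than in every control library of the same depot, and the leukocyte and epithelial sums were higher. Within them, of 5 endothelial markers tested 1 rose (Cdh5, by 0.66 and 0.43 log2 in white and brown cells) and 3 fell in both depots. Of 4 leukocyte markers tested, Cd14 (0.73 and 1.12) and Cd68 (0.67 and 0.53) rose, while Lyz2 (log2 -2.50 and -3.29) and Csf1r (log2 -0.73 and -0.40) fell. Cd3e was at 0 in all 16 libraries, Myod1 likewise. The part of these cells in the results was not tested. In bulk RNA, fewer cells of a type and less RNA per cell cannot be told apart. Brown control library 15 differed more from its group than any other library did (a chi-square over degrees of freedom between 8.04 and 8.70 in its within-group pairs, against 1.40 to 2.75 in other pairs), so counts over the 40 members are also given without it.

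Myc was raised by Fgf8b in both depots, from a lower starting level in brown cells to the same level range as in white cells. Myc (representative transcript NM_001177352) was at 20.6, 21.4, 19.4 and 21.6 RPKM in the white control libraries and at 42.05, 45.8, 43.2 and 41.9 RPKM in the white Fgf8b libraries. It was at 15.5, 14.5, 15.1 and 16.8 RPKM in the brown control libraries and at 46.9, 45.5, 45.03 and 44.3 RPKM in the brown Fgf8b libraries. All Fgf8b libraries lay above all control libraries, all brown control libraries lay below all white control libraries, and the Fgf8b libraries of the depots overlapped. The entry of Myc with the most reads rested on 551 to 585 reads per library in brown control and 1611 to 2076 in white Fgf8b. The change was 2.09-fold in white cells (log2 1.06, SE 0.05, limma adjusted p = 4.9e-13) and 2.92-fold in brown cells (log2 1.55, SE 0.05, adjusted p = 1.39e-15). The brown response exceeded the white by 0.48 log2 (95% interval 0.34 to 0.63, adjusted p = 2.27e-05). In control cells, Myc was 1.33-fold lower in brown than in white (log2 -0.41, adjusted p = 2.07e-06). Under Fgf8b the depot difference was 0.07 log2 with an interval of -0.03 to 0.18 and was not called (adjusted p = 0.209).

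**Figure D1:**
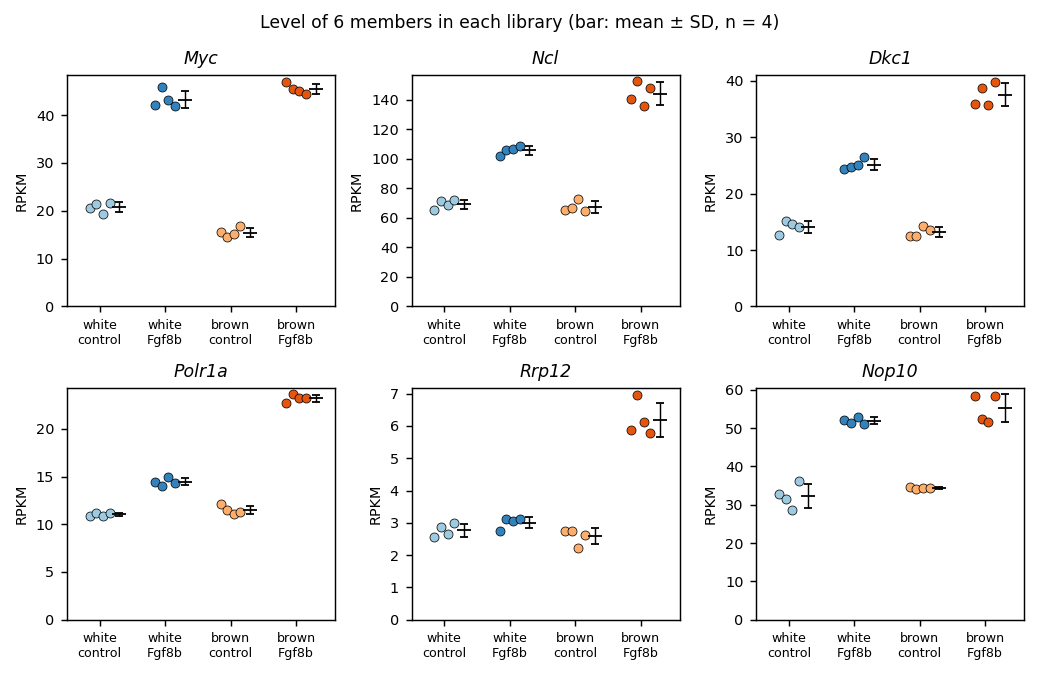
RPKM of the representative transcript of Myc, Ncl, Dkc1, Polr1a, Rrp12 and Nop10 in each of the 16 libraries, by group, with group mean and SD (n = 4). Myc reached 41.9 to 46.9 RPKM under Fgf8b in both depots, while Ncl, Dkc1, Polr1a and Rrp12 were higher in brown than in white Fgf8b libraries and Nop10 overlapped.

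In white cells Fgf8b raised 37 of the 40 members and lowered 0, where 36.3% of all genes tested were called higher, 29.5% lower and 65.7% in either direction. The median change of the members was 0.41 log2, or 1.33-fold, with a range of 0.06 to 1.06, beside a median of 0.04 over all genes. Of the members, 35 had every white Fgf8b library above every white control library, against 35.2% of all genes. Utp20 (0.06, adjusted p = 0.396), Rrp12 (0.11, adjusted p = 0.328) and Noc3l (0.14, adjusted p = 0.0711) were not called. In brown cells 40 of 40 members rose and 0 fell, where 36.7% of all genes were called higher, 34.7% lower and 71.4% in either direction. The median was 1.01 log2, or 2.02-fold, with a range of 0.37 to 1.55, beside 0.01 over all genes. All 40 had groups that did not overlap, against 32.2% of all genes with every Fgf8b library above every control library. Without brown control library 15, 40 members were called higher and the median was 0.98.

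Subtracting the white response from the brown, the difference was called higher for 38 members and lower for 0, where 17.1% of all genes were called higher, 17.8% lower and 34.9% in either direction. Its median was 0.53 log2 beside -0.01 over all genes. Without brown control library 15 it was called higher for 38 and lower for 0, with a median of 0.55, and the counts of each role group in it and in the brown response stayed the same in number. The white and brown responses rest on separate libraries, but this difference is built from both and from the same libraries as the depot comparisons given further on. The members that were not called were Nop10 (-0.00, interval -0.17 to 0.17, adjusted p = 0.979) and Rrp1b (0.22, interval 0.01 to 0.44, adjusted p = 0.098). Taken library by library, the median member of the 4 white Fgf8b libraries stood 0.37 to 0.44 log2 above the white control mean, and that of the 4 brown Fgf8b libraries 0.97 to 1.04 above the brown control mean.

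**Figure D2:**
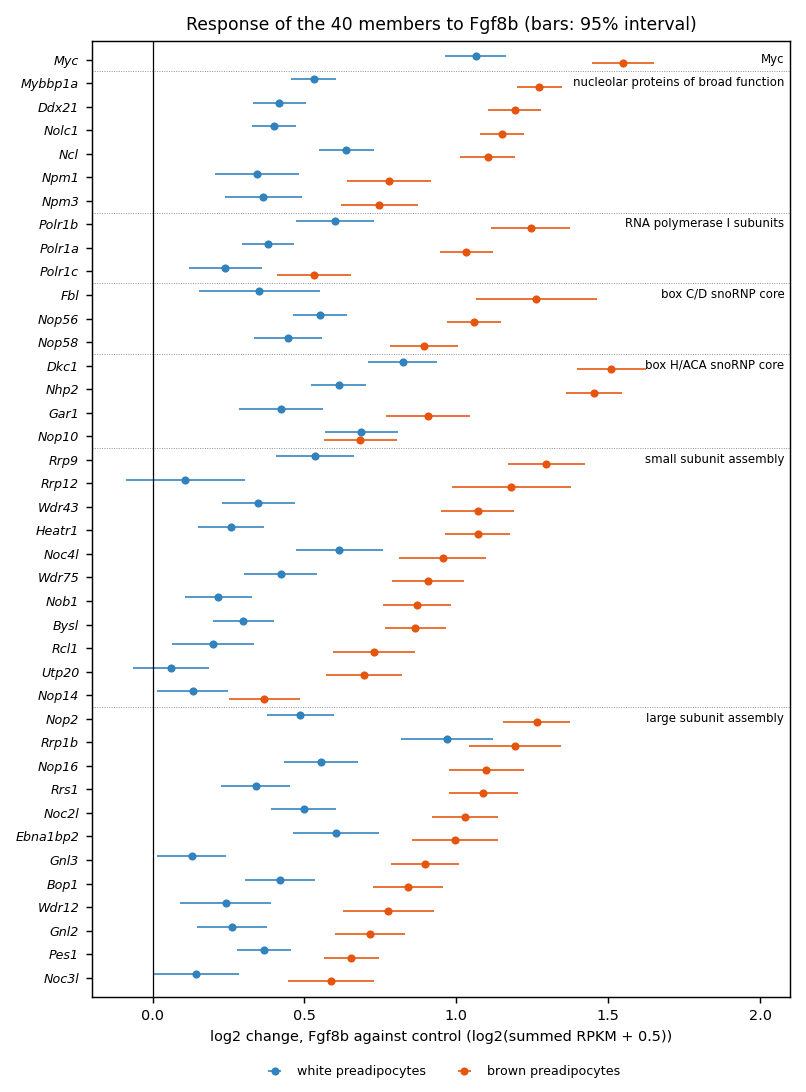
Log2 change with Fgf8b in white and in brown preadipocytes for the 40 members, grouped by role; bars are 95% intervals from limma (4 libraries per group). In brown cells all 40 lie above 0, from 0.37 to 1.55, and in white cells they lie from 0.06 to 1.06.

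Among nucleolar proteins of broad function, all 6 rose in both depots, with a median of 0.41 log2 in white and 1.13 in brown cells, and all 6 responded more in brown cells. Ncl encodes nucleolin, an abundant nucleolar protein that binds nascent ribosomal RNA. Ncl was at 65.1, 71.2, 68.6 and 72.0 RPKM in white control and 102, 106, 107 and 109 in white Fgf8b libraries. It was at 65.2, 66.6, 72.8 and 64.6 RPKM in brown control and 141, 153, 136 and 148 in brown Fgf8b libraries. The control groups overlapped, and the brown Fgf8b libraries lay above all others. The change was 1.56-fold in white (adjusted p = 1.92e-10) and 2.15-fold in brown cells (adjusted p = 4.21e-14). Mybbp1a, a nucleolar protein that binds Myb, rose from 34.7 ± 1.13 to 50.3 ± 1.54 RPKM in white and from 31.2 ± 0.87 to 75.8 ± 3.14 in brown cells (SD, n = 4). Ddx21, an RNA helicase, rose 1.33-fold and 2.28-fold. Npm3, a relative of nucleophosmin, had the smallest mean change of the group, at 1.29-fold in white and 1.68-fold in brown cells. Npm1 itself, nucleophosmin, was the most abundant member at 138 RPKM averaged over the 16 libraries. It rose 1.27-fold in white and 1.72-fold in brown cells, and brown control library 15 held 134 RPKM where the other brown control libraries held 97.3 to 103. Npm1 and Npm3 share 45.5% and 46.5% of their 31-base words with transcripts of other genes, so their reads may be split with those genes. Shares were also high for Nop56 (38.2%), Pes1 (33.1%) and Noc2l (20%), and less so for Rrs1 (15.8%), Wdr12 (14.5%) and Bysl (10.2%). Words of Noc2l, Wdr12 and Bysl occurred in 1436, 4372 and 783 other genes. What kind of sequence was shared was not examined. Apart from Fbl, given below, the remaining members had lower shares.

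All 3 RNA polymerase I subunits rose in both depots, with a median of 0.38 log2 in white and 1.03 in brown cells. Polr1a, the largest and catalytic subunit, was at 10.9, 11.2, 10.9 and 11.2 RPKM in white control and 14.5, 14.04, 14.9 and 14.3 in white Fgf8b libraries. It was at 12.1, 11.5, 11.1 and 11.3 RPKM in brown control and 22.7, 23.7, 23.2 and 23.2 in brown Fgf8b libraries. The 4 brown Fgf8b values exceed all other values by more than the range of any group. The change was 1.30-fold in white (adjusted p = 1.49e-07) and 2.05-fold in brown cells (adjusted p = 5.48e-14), and the difference of 0.65 log2 was called (adjusted p = 1.2e-07). Polr1b, which forms the active centre with Polr1a, rose 1.52-fold and 2.37-fold. Polr1c, a subunit shared with RNA polymerase III, rose least, by 1.18-fold in white and 1.45-fold in brown cells.

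The box C/D ribonucleoproteins guide ribose methylation of ribosomal RNA. All 3 of their core proteins rose in both depots, with a median of 0.45 log2 in white and 1.06 in brown cells. Nop56, a scaffold protein, was at 24.0, 25.9, 24.1 and 26.1 RPKM in white control and 34.7, 37.7, 36.6 and 37.0 in white Fgf8b libraries. It was at 24.5, 25.3, 23.1 and 25.4 RPKM in brown control and 50.7, 50.4, 51.7 and 51.8 in brown Fgf8b libraries. The control libraries of the depots overlapped and the brown Fgf8b libraries were highest. The change was 0.55 log2 in white (adjusted p = 1.05e-09) and 1.06 log2 in brown cells (adjusted p = 5.08e-14). Nop58, its partner, rose 1.36-fold and 1.86-fold. Fbl, the methyltransferase fibrillarin, rose 1.28-fold in white and 2.40-fold in brown cells, a difference of 0.91 log2 (adjusted p = 3.69e-05). The level of Fbl is uncertain because 79.0% of its 31-base words occur in other genes, and its representative transcript was at only 2.91 to 7.34 RPKM in the group means.

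The box H/ACA ribonucleoproteins guide pseudouridylation and also form part of telomerase. Their 4 core proteins rose in both depots, with a median of 0.65 log2 in white and 1.18 in brown cells. Dkc1, the pseudouridine synthase dyskerin, was at 12.6, 15.1, 14.5 and 14 RPKM in white control and 24.4, 24.7, 25.01 and 26.5 in white Fgf8b libraries. It was at 12.4, 12.4, 14.3 and 13.5 RPKM in brown control and 35.9, 38.7, 35.7 and 39.8 in brown Fgf8b libraries. Every Fgf8b library was above every control library, and brown Fgf8b was above white Fgf8b without overlap. After Myc, Dkc1 had the largest brown response of the members, at 2.85-fold (log2 1.51, SE 0.05, adjusted p = 9.67e-15), against 1.77-fold in white cells (adjusted p = 1.09e-10). Nhp2 rose 1.53-fold in white and 2.74-fold in brown cells, and Gar1 rose 1.34-fold and 1.88-fold.

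Nop10, the smallest protein of the same complex, had equal changes in the depots. It was at 32.8, 31.4, 28.6 and 36.3 RPKM in white control and 52.2, 51.3, 53.05 and 51.0 in white Fgf8b libraries. It was at 34.5, 34.1, 34.5 and 34.5 RPKM in brown control and 58.5, 52.5, 51.6 and 58.5 in brown Fgf8b libraries. The depots overlapped both without and with Fgf8b. The change was 1.61-fold in white (adjusted p = 3.73e-09) and 1.61-fold in brown cells (adjusted p = 3.1e-09). The interval of the difference, -0.17 to 0.17 log2, lies below that of Dkc1 (0.53 to 0.85), Nhp2 (0.71 to 0.97) and Gar1 (0.29 to 0.68). A test between genes was not made.

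Of 11 small subunit assembly factors, 9 rose in white cells, with a median of 0.26 log2 over the 11, and 11 rose in brown cells, with a median of 0.91. All 11 responded more in brown cells. Rrp9, a protein of the small nucleolar ribonucleoprotein that directs early precursor cleavage, rose from 9.56 ± 0.37 to 14.2 ± 0.73 RPKM in white and from 9.34 ± 1.05 to 23.4 ± 1.23 in brown cells (SD, n = 4). Noc4l rose 1.53-fold and 1.94-fold, and Wdr43, a factor of the early small subunit processome, by 0.35 and 1.07 log2. Nop14 had the smallest mean of the responses among them, at 0.13 log2 in white (adjusted p = 0.045) and 0.37 log2 in brown cells (adjusted p = 9.65e-06). Its white call was lost under both scaling factors tried, with no filter on low values (adjusted p = 0.0671), with another variance model (adjusted p = 0.0632), and when any of 9 libraries was left out (white control 1, 5 or 7, white Fgf8b 2, 6 or 8, brown control 13, brown Fgf8b 10 or 12), with log2 changes of 0.09 to 0.14 in those omissions. Its difference of responses (0.24, adjusted p = 0.0269) was lost with upper-quartile factors (adjusted p = 0.055) and without white control 3, white Fgf8b 4, brown control 9 or 11, or brown Fgf8b 16, with values of 0.21 to 0.22.

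Rrp12, which acts in the maturation and export of pre-ribosomes in yeast, had the largest difference between depots among the members. It was at 2.55, 2.88, 2.66 and 3.002 RPKM in white control and 2.74, 3.11, 3.07 and 3.11 in white Fgf8b libraries. It was at 2.74, 2.74, 2.23 and 2.63 RPKM in brown control and 5.89, 6.95, 6.12 and 5.77 in brown Fgf8b libraries. The white groups overlapped with each other and with brown control, and brown Fgf8b lay above them all. The brown change was 2.27-fold (log2 1.18, SE 0.09, adjusted p = 1.45e-09), the white change was not called, and the difference was 1.07 log2 (interval 0.80 to 1.35, adjusted p = 5.09e-06). Utp20, a large scaffold of the small subunit processome, was at 8.90 ± 0.39 and 9.29 ± 0.83 RPKM in white control and Fgf8b, and at 9.93 ± 0.31 and 16.2 ± 0.57 in brown control and Fgf8b libraries. Its responses differed by 0.64 log2 (adjusted p = 1.22e-05). Rrp12 was the least abundant member by its representative transcript, at 3.64 RPKM averaged over the 16 libraries.

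Of 12 large subunit assembly factors, 11 rose in white cells, with a median of 0.39 log2 over the 12, and 12 rose in brown cells, with a median of 0.95. Rrp1b had the largest white response after Myc. Rrp1b was at 4.88, 4.56, 4.38 and 4.22 RPKM in white control and 7.84, 8.47, 7.995 and 8.97 in white Fgf8b libraries. It was at 4.04, 4.45, 4.10 and 4.57 RPKM in brown control and 8.96, 10.02, 10.1 and 9.47 in brown Fgf8b libraries. The Fgf8b libraries of the depots met at their edges, with the lowest brown value just under the highest white value. The change was 1.96-fold in white (adjusted p = 7.99e-10) and 2.29-fold in brown cells (adjusted p = 2.82e-11). The difference, not called on summed entries, was 0.27 log2 and called on the representative transcript alone (adjusted p = 0.016). Nop2, a ribosomal RNA methyltransferase, rose 1.40-fold and 2.40-fold, and Nop16 rose 1.47-fold and 2.14-fold. Noc3l had the smallest mean change in this role, at 0.14 log2 in white, not called, and 0.59 log2 in brown cells. Its white change was called on the representative transcript (limma adjusted p = 0.0399). It was also called without white Fgf8b 2 (adjusted p = 0.0377) or brown control 9 (adjusted p = 0.0471). Bop1, Pes1 and Wdr12, which form a trimeric complex for large subunit maturation, rose 1.34-fold, 1.29-fold and 1.18-fold in white and 1.79-fold, 1.57-fold and 1.71-fold in brown cells. Gnl3, the GTPase nucleostemin, rose 1.86-fold in brown cells. Its white change of 1.09-fold (adjusted p = 0.0421) was lost under both scaling factors, with no filter (adjusted p = 0.0606), with another variance model (adjusted p = 0.0571), and without white control 3, 5 or 7 or white Fgf8b 4, 6 or 8, with log2 values of 0.09 to 0.13 in those omissions.

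Without Fgf8b the depots differed little in these genes. White libraries are numbered 1 to 8 and brown libraries 9 to 16 in the labels, so handling that followed the numbers cannot be told apart from depot. This limit holds for every direct comparison of brown with white cells given here. In control cells 2 members were called higher and 7 lower in brown than in white cells, where 18.1% of all genes were called higher, 15.9% lower and 33.9% in either direction. The median of the members was -0.04 log2 beside 0.00 over all genes. Ddx21 (0.16) and Bysl (0.19) were the higher members. Myc (-0.41), Noc2l (-0.31), Gnl3 (-0.27), Polr1c (-0.20), Npm3 (-0.16), Wdr43 (-0.15) and Mybbp1a (-0.15) were the lower members. Noc2l, a nucleolar protein of large subunit assembly, was at 33.3, 35.2, 32.9 and 34.4 RPKM in white control and 29.3, 27.6, 24.9 and 29.3 in brown control libraries, so that the groups did not overlap. The calls of Npm3 and Wdr43 were close to the threshold (adjusted p = 0.0463 and 0.0475). Of the 16 fits that each left out 1 library, 5 kept the Npm3 call (without white control 7, white Fgf8b 2, brown control 9 or 11, or brown Fgf8b 14) and 4 the Wdr43 call (without white control 1 or 5, white Fgf8b 2, or brown control 15). Both calls were also lost with no filter (adjusted p = 0.0653 and 0.0687), with another variance model (0.0589 and 0.0649), in a fit of only the compared groups (0.102 and 0.117) and on the representative transcript. There the differences were log2 -0.0989 and -0.0961 (adjusted p = 0.229 and 0.156). Without brown control library 15 the counts were 3 higher and 9 lower. Without white control library 7 they were 4 higher and 7 lower.

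With Fgf8b, 36 members were called higher in brown than in white cells and 0 lower, where 26.9% of all genes were called higher, 24.7% lower and 51.6% in either direction. The median was 0.50 log2, or 1.41-fold, beside 0.01 over all genes. Every brown Fgf8b library lay above every white Fgf8b library for 36 members, against 26.8% of all genes. Rrp12 (0.98), Ddx21 (0.94), Rrs1 (0.83), Heatr1 (0.82) and Nop2 (0.81) stood at the upper end. Myc (0.07), Polr1c (0.09, adjusted p = 0.186), Nop10 (0.09, adjusted p = 0.203) and Rrp1b (0.14, adjusted p = 0.113) were not called. On the representative transcript Rrp1b was called (0.20, adjusted p = 0.00711). Without brown control library 15, 36 were called higher. The depot comparisons share their libraries with the Fgf8b responses, so these counts and those of the difference of responses restate the same 16 libraries from another side.

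**Figure D3:**
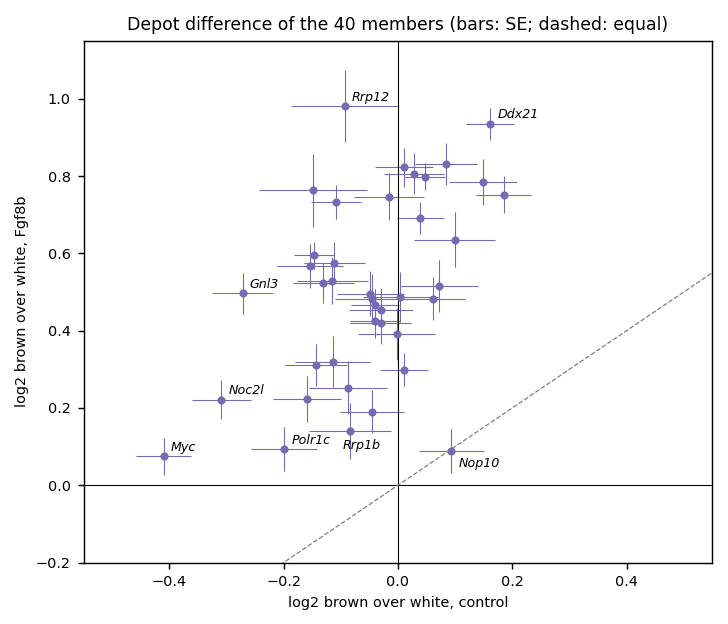
Log2 ratio of brown to white preadipocytes under control (x axis) and under Fgf8b (y axis) for the 40 members; bars are standard errors and the dashed line marks equal ratios. Of the members, 36 were called higher in brown cells under Fgf8b, where Myc stands at 0.07, and 2 were called higher under control, where Myc stands at -0.41.

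Promoter sequence was examined for the E-box CACGTG, the motif that Myc and Max bind and that reads the same on both strands. RefSeq promoters (build GRCm38.p6, from 250 bases before to 50 after the gene start, 300 in all) were matched for 33 of the 40 members; those of Myc, Npm1, Fbl, Rrp12, Bop1, Rrs1 and Gnl2 were not. The motif occurred in 5 of the 33, or 15.2%, and in 8.09% of all 27025 gene symbols with such a promoter. Those symbols were not limited to genes tested here. The 5 stretches are shown because they hold the motif, which is in capitals, with 120 bases each, 5′ to 3′ on the strand of the gene:
Mybbp1a, chr11:72441257-72441376, plus strand: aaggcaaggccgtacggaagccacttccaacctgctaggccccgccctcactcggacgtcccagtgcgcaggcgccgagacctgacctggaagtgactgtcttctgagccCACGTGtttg
Wdr43, chr17:71616145-71616264, plus strand: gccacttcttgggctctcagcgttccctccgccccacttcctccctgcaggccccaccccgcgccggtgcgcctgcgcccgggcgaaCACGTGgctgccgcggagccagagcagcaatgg
Utp20, chr10:88826765-88826884, minus strand: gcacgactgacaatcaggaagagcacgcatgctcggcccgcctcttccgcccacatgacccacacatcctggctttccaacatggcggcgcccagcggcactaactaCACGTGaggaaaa
Pes1, chr11:3963905-3964024, plus strand: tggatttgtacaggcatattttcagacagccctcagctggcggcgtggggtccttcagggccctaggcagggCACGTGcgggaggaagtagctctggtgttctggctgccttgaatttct
Nop2, chr6:125131813-125131932, plus strand: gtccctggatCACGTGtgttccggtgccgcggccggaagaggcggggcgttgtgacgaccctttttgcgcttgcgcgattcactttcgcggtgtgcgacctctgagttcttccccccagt

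The motif begins 41 bases after the gene start in Mybbp1a, 18 in Wdr43, 38 in Utp20 and 3 in Pes1, and at -60 in Nop2. These 5 members rose by 0.65 to 1.27 log2 in brown cells, inside the range of all 40, and Utp20 among them was not called in white cells. A match is a description of these letters, and binding was not measured.

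Other genes of the same pathway mostly moved in the same direction, with smaller medians than the 40 members together. Within a role this did not always hold: in white cells the 11 small subunit members had a median of 0.26 log2, and the further small subunit factors 0.27. Over all genes, 36.3% were called higher and 29.5% lower in white, and 36.7% and 34.7% in brown cells. A larger response in brown cells was called for 17.1% of all genes. Of 43 further small subunit factors tested, 33 rose in white and 42 in brown cells, with medians of 0.27 and 0.61 log2, and 28 responded more in brown cells. Of 47 further large subunit factors, 38 rose and 3 fell in white, 44 rose and 1 fell in brown, with medians of 0.30 and 0.65, and 38 responded more in brown cells. Wdr36, a small subunit processome protein, rose by 0.67 and 1.01 log2 in white and brown cells, and Dimt1, a ribosomal RNA dimethyltransferase, by 0.86 and 1.14. Mrto4, a large subunit assembly factor related to a ribosomal stalk protein, rose by 0.53 and 1.32, and Pop1, a protein of the RNA processing enzyme RNase MRP, by 0.62 and 1.29. Urb1, also of large subunit assembly, fell in white (log2 -0.31, adjusted p = 0.005283) and rose by 0.61 in brown cells (adjusted p = 5.737e-06). Of 13 RNA exosome genes, 10 rose in white and 12 in brown cells, 0 fell, and the medians were 0.31 and 0.52. Exosc8 rose by 0.72 and 0.84, and Exosc2 by 0.44 and 0.89.

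The transcription machinery was more mixed. For comparison, 36.3% of all genes rose and 29.5% fell in white, and 36.7% rose and 34.7% fell in brown cells. Of 13 other RNA polymerase I genes tested of 17 listed, 6 rose and 1 fell in white, 9 rose and 2 fell in brown cells. Polr1e, a polymerase subunit, rose by 0.48 and 0.75 log2 and Cd3eap, another subunit, by 0.35 and 0.58. Ubtf, the factor that opens ribosomal DNA for transcription, fell in white (log2 -0.37, adjusted p = 9.629e-10) and in brown cells (log2 -0.13, adjusted p = 0.0004195). Of 21 RNA polymerase III genes, 12 rose and 0 fell in white, 17 rose and 1 fell in brown cells. Polr3g, a subunit known from undifferentiated cells, rose by 1.24 and 1.36, whereas Polr3gl, the relative of Polr3g, stood at -0.10 in white (not called) and fell in brown cells (log2 -0.86). Of 11 snoRNA host genes tested of 19 listed, 2 rose and 4 fell in white, 6 rose and 2 fell in brown cells. Snhg3 rose by 0.45 and 0.71, and Snhg12 fell in both (log2 -1.44 and -0.85).

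Cytosolic ribosomal proteins had smaller median changes than the assembly factors. Of 78 tested, 20 rose and 6 fell in white, and 55 rose and 0 fell in brown cells, with medians of 0.09 and 0.33 log2. Of all genes, 36.3% rose and 29.5% fell in white, and 36.7% and 34.7% in brown cells. Both white counts lie below these shares. In control cells 46 of the 78 were lower and 0 higher in brown than in white cells, with a median of -0.24, and under Fgf8b 8 were higher and 7 lower. Over all genes, 15.9% were lower and 18.1% higher in control cells, and 24.7% and 26.9% under Fgf8b. Rps2 rose by 0.34 and 0.70, and Rps27a, a ubiquitin fusion, by 0.52 and 1.0. Ribosomal proteins have many processed pseudogenes: the median gene shared 53.3% of its 31-base words with other genes, against 3.14% for the members, so these values are uncertain. In each group 6 or 7 of the 79 found had a representative transcript at 0 RPKM in every library.

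**Figure D4:**
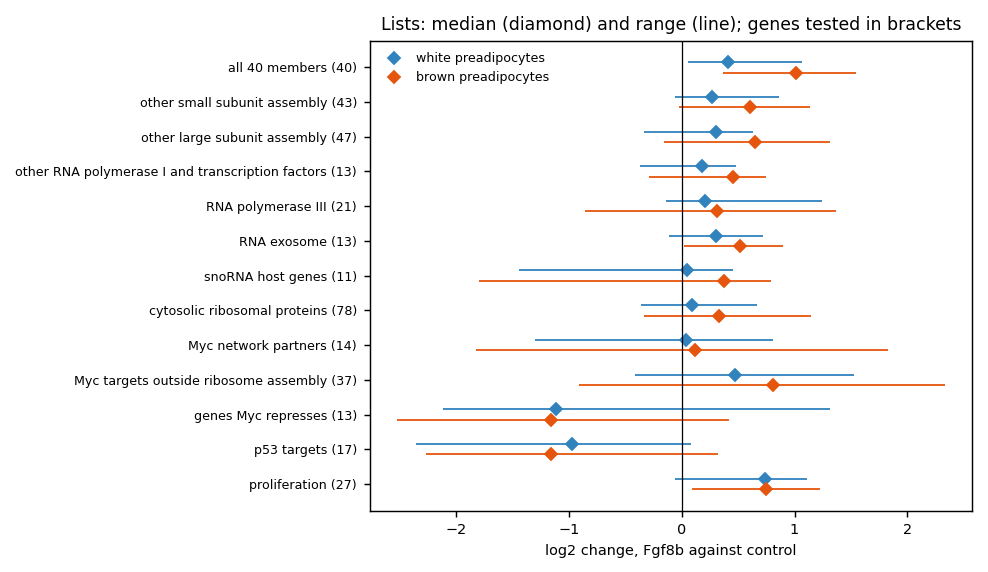
Median (diamond) and range (line) of the log2 change with Fgf8b in white and brown preadipocytes for the 40 members together and for other gene lists. The median of the 40 members was 0.41 in white and 1.01 in brown cells, and that of proliferation genes 0.74 and 0.75.

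Among the partners of Myc, 5 of 14 rose and 6 fell in white, and 7 rose and 5 fell in brown cells. The shares over all genes were 36.3% higher and 29.5% lower in white, and 36.7% and 34.7% in brown cells. The white count of partners that rose and the brown count that fell lie near these shares. Max stood at 43.9 ± 1.01 RPKM in white control, 37.8 ± 0.48 in white Fgf8b, 45.6 ± 2.38 in brown control and 47.6 ± 1.54 in brown Fgf8b libraries; it fell in white cells (log2 -0.22) and was not called in brown cells (0.06). Mxd4, which competes with Myc for Max, fell from 30.4 ± 1.82 to 11.9 ± 1.0 RPKM in white and from 37.9 ± 3.38 to 10.4 ± 0.82 in brown cells, changes of -1.30 and -1.83 log2. Mxd1, of the same family, fell (log2 -0.81 and -0.38), as did Mnt (log2 -0.40 and -0.34), and Mxi1 rose by 0.73 and 0.24. Mycn, a relative of Myc, rose by 0.81 and 1.83 log2 but stayed low, with group means of 0.17 to 0.84 RPKM.

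Of 37 Myc targets outside ribosome assembly, 31 rose and 3 fell in white and 32 rose and 3 fell in brown cells, with medians of 0.47 and 0.81 log2. Beside these and the repressed genes below, 36.3% of all genes rose and 29.5% fell in white cells. In brown cells 36.7% of all genes rose and 34.7% fell. Tfrc, the transferrin receptor that takes up iron, rose from 16.3 ± 0.95 to 30.7 ± 4.18 RPKM in white and from 16.9 ± 1.61 to 85.8 ± 4.19 in brown cells (SD, n = 4), and its difference of 1.43 log2 was called (adjusted p = 2.172e-08). Ldha, lactate dehydrogenase, rose by 1.53 and 1.71. Ccnd2, Slc7a5 and Slc3a2 fell in both depots; Slc7a5 and Slc3a2 form an amino acid transporter and Ccnd2 is a cyclin. Of 13 genes that Myc represses, 10 fell and 3 rose in white, and 10 fell and 1 rose in brown cells. Col1a1, a collagen chain, fell (log2 -2.11 and -2.52), as did Itga1, an integrin (log2 -1.60 and -2.44). Col1a1, Col1a2 and Pdgfrb are also on the fibroblast marker list, whose summed level was lower under Fgf8b in both depots, as given above, and the part of that shift was not tested.

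Proliferation genes rose in both depots with like medians. Of 27, 25 rose in white and 27 in brown cells, with medians of 0.74 and 0.75 log2, and the difference of responses was called higher for 9 and lower for 2, with a median of 0.07. Shares of all genes called higher were 36.3% in white and 36.7% in brown cells. The difference was called higher for 17.1% of all genes and lower for 17.8%. Ube2c, which marks proteins for destruction at mitosis, rose by 1.11 and 1.23, and Bub1, a spindle checkpoint kinase, from 9.65 ± 0.26 to 19.6 ± 0.52 RPKM in white and from 10.4 ± 0.87 to 22.2 ± 0.98 in brown cells. For neither was the difference called (0.12, adjusted p = 0.2754, and 0.07, adjusted p = 0.5332).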

How the data were processed

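RNA was prepared with TRIsure and a column and made into TruSeq v2 libraries, per the labels' protocols. CASAVA and bcl2fastq are named in the submitters' processing notes; no aligner, build, annotation or strand setting is given in the sources used here. The authors deposited 1 table of 168326 transcript entries with RPKM values for the 16 libraries, written with decimal commas; its unit was recorded as "other" because of the commas. No label or header names the unit; RPKM follows the description of the table and the whole-read steps of its values once multiplied by transcript length. All values were numeric, 0 were below 0, the highest was 9575.12 RPKM and 0 columns held only whole numbers. Of the entries, 23172 without a symbol and 808 of repeated accessions were left out (some entries were both). The other 144549 were summed per gene symbol, of which 29060 resulted, and the members have 2 to 24 entries each. Among the 299 accessions left out as repeated, 145 had unequal entries in white libraries and 0 in brown libraries. The cause of this contrast between the depots was not tested. Levels printed are those of the RefSeq transcript with the highest mean, and changes are those of the sum, so the ratio of printed levels can differ from the fold change.

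Changes were tested with limma 3.58.1 in R 4.3.3 (mean-variance trend, robust) in 1 fit of all 16 libraries on log2(RPKM + 0.5), after a filter of at least 0.5 RPKM in at least 4 libraries; fold changes of low genes are understated by the pseudocount. A gene is called at a Benjamini-Hochberg adjusted p under 0.05 over 15222 genes. A count test was not used since the values are not counts. Depth was estimated from the smallest step of RPKM with the lengths of 46002 Ensembl entries; of values equal to at most 50 reads, 95.6% to 96.0% came within 0.1 of a whole number. Shared words were counted in GENCODE M21 transcripts, on either strand, from the longest coding transcript of each gene. The limma fit was tested on simulated data with changes placed in the white Fgf8b libraries only. The simulated libraries were independent, with equal spread and a single entry per gene. Shared cultures, an outlying library and summed entries were therefore not covered. The other steps were not tested in this way.

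The members and lists were chosen with earlier results of these data known; the list of mature adipocyte markers was added after the data were seen. Named genes are Myc, the 3 members per role with the largest and the 1 with the smallest mean of the 2 Fgf8b changes, and up to 2 of each other list with the largest mean and at least 1 RPKM. Utp20, Rrp12, Npm1, Noc2l, Gnl3, Bysl, Bop1, Pes1, Wdr12, Rrs1, Heatr1, Zic1, Max, Mnt, Mxi1, Mycn, Urb1, Ubtf, Polr3gl, Ebf3, Dcn, Lum, Cdh5, Cd14, Cd68, Lyz2 and Csf1r, and the genes named as exceptions within a list, were named after their values were seen. Alternatives were another pseudocount, no filter, scaling factors, the representative transcript, another variance model, only the groups compared, and leaving out each library. Of the marker lists of other cell types, mostly summed levels and counts are given, and the genes that this rule would name there are mostly not described; 1 further result is not reported here.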

Additional observations from a re-analysis of the deposited data

Results flagged for a closer look

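For 21 of the 23 members named by the rule, the Fgf8b response differed between depots by limma's test of the difference itself. Each response was larger in brown cells. By the same test, 34.9% of all genes were called in either direction and 17.1% higher. The 21 are among the 38 members called for this difference above. The rule named members mainly by the size of their Fgf8b changes in these same libraries. On the log2 scale, brown minus white, the difference was 0.48 for Myc. Among nucleolar proteins it was 0.74 for Mybbp1a, 0.47 for Ncl, 0.77 for Ddx21 and 0.38 for Npm3. It was 0.64 for Polr1b, 0.65 for Polr1a and 0.29 for Polr1c among polymerase subunits. The box C/D proteins had 0.91 for Fbl, 0.51 for Nop56 and 0.45 for Nop58, and the box H/ACA proteins 0.69 for Dkc1, 0.84 for Nhp2 and 0.48 for Gar1. Small subunit factors had 0.76 for Rrp9, 0.34 for Noc4l, 0.72 for Wdr43 and 0.24 for Nop14, and large subunit factors 0.78 for Nop2, 0.54 for Nop16 and 0.44 for Noc3l. Adjusted p-values ran from 2.88e-09 for Mybbp1a to 0.0269 for Nop14.

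In 92 groups of 4 libraries checked, the value of 1 library stood apart from the rest in 2: Noc4l was at 15.7 RPKM in white Fgf8b library 4 where the others were at 14.01 to 14.3, and Wdr43 was at 18.9 RPKM in brown control library 15 where the others were at 16.1 to 16.5. Chance flags about 1 in 20 such groups.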

How the results depend on the processing

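No paired analysis was possible because the groups share no replicate numbers in the labels. Members called higher with Fgf8b numbered 34 to 38 in white and 40 in brown cells under the settings other than omissions, and 35 to 38 and 40 when each library was left out in turn; the difference of responses was called for 37 to 39 and 37 to 38. With upper-quartile factors the median of the members was 0.347 in white and 0.923 in brown cells. Members higher in brown control numbered 2 to 4 over the omissions, with 4 without white control library 7. Members lower there numbered 5 to 9 over the omissions and 5 to 10 under the other settings. The sign changed for members whose main value was near 0, and none was called: for Gar1 in control cells to -0.00428 with median-of-ratios factors, -0.000211 on the representative transcript and a range of -0.0692 to 0.0863 over the omissions; for Rrp9 and Nop2 in control cells, ranges of -0.0521 to 0.0419 and -0.00379 to 0.052 over the omissions; and for the Nop10 difference to 0.0132 with median-of-ratios factors and a range of -0.0619 to 0.0523 over the omissions. Both scaling factors ended the white calls of Nop14, Gnl3 and Rcl1. The fit of only the groups compared was not run for the difference of responses. The cause of these shifts was not tested. Rrp12 and Fbl, the least abundant members by representative transcript, had the widest intervals.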

Other observations

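Targets of p53, the growth-arresting transcription factor that impaired ribosome assembly is known to activate, mostly fell with Fgf8b. A link to the members was not tested. Of 17 tested of 18 listed, 16 fell and 1 rose in white cells, and 16 fell and 1 rose in brown cells, with medians of -0.97 and -1.16 log2 beside 0.04 and 0.01 over all genes. Of all genes, 29.5% were called lower and 36.3% higher in white, and 34.7% and 36.7% in brown cells. The difference of responses was called higher for 5 p53 targets and lower for 4, with a median of 0.06. For the 40 members it was called higher for 38 and lower for 0. Cdkn1a, the cell cycle inhibitor p21, which is also on the list of genes Myc represses, fell from 130 ± 2.76 to 58.5 ± 2.78 RPKM in white and from 205.8 ± 10.2 to 90.03 ± 1.30 in brown cells (SD, n = 4), a log2 change of -1.16 in both. Trp53inp1, which promotes p53 activity, fell (log2 -2.36 and -2.21), as did Gdf15, a secreted stress factor (log2 -1.67 and -2.27). Mdm2, which degrades p53, was the gene that rose, by 0.08 in white (limma adjusted p = 0.044) and 0.32 in brown cells (adjusted p = 9.526e-08). In control cells 14 of the 17 were higher in brown than in white cells and 0 were lower, with a median of 0.45 log2. Under Fgf8b 13 were higher and 2 lower, with a median of 0.56. Of all genes, 18.1% were higher and 15.9% lower in brown control cells, and 26.9% and 24.7% under Fgf8b.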
